A study of Mus musculus with 8 samples.

Results

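The genes described here are 10 direct antiviral restriction factors of the mouse: Rsad2, Cmpk2, Mx1, Mx2, Bst2, Samhd1, Ifitm2, Ifitm3, Apobec3 and Isg20. They were taken by gene symbol from the deposited count table, where each has 1 row, so they are 10 of 42454 rows, of which 18955 held at least 1 count in the 8 libraries.

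Poly(A) RNA was sequenced from RAW264.7, a transformed macrophage-like line from a mouse tumour, in 4 groups of 2 libraries each. By the labels, LPS_IFNg_TubB had lipopolysaccharide at 10 ng/ml, interferon-γ at 20 ng/ml (both for 24 h) and Tubuloside B, a phenylethanoid glycoside from plants. LPS_IFNg had the same stimulus without Tubuloside B. TubB had Tubuloside B and mock had the solvent DMSO, both without the stimulus. The dose of Tubuloside B, and a time for TubB and mock, are not given in the sources used here. All groups share 1 cell line, and the labels do not say whether replicates came from separate cultures. The spread that the p-values rest on is thus that of these libraries, and it may be technical.

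Restriction factors are proteins that stop a virus inside the cell that makes them, each at its own step of the viral life cycle. Most are induced when interferon binds its receptor on the cell surface, which activates Janus kinases and, through them, STAT proteins that enter the nucleus and bind response elements near the genes' start sites. Type I interferon acts mainly through the interferon-stimulated response element (ISRE), and interferon-γ mainly through the gamma-activated site (GAS). In macrophages, lipopolysaccharide drives the same genes by way of TLR4, IRF3 and the type I interferon that the cells then secrete.

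The levels of 3 genes that macrophages induce on stimulation went against the group labels. Nos2, the inducible nitric oxide synthase, had 7429 and 6156 CPM (counts scaled by library size) in the libraries labelled LPS_IFNg_TubB, against 199 and 166 CPM in those labelled LPS_IFNg. It had 6964 and 5762 CPM in the libraries labelled TubB, against 176 and 155 CPM in those labelled mock. Il6 and Ptgs2 had the same order: high in every library labelled TubB or LPS_IFNg_TubB and low in every library labelled LPS_IFNg or mock. The groups are therefore named throughout as the libraries are labelled, and every direction given below, and every mention of the stimulus or of Tubuloside B, rests on those labels. Whether labels were exchanged between groups was not tested. Counts summed to between 4767894 and 8413834 per library. Of 12 macrophage markers, 10 passed the count filter and Mertk and Aif1 were at 0. Their summed level was 10120 to 10400 CPM in LPS_IFNg_TubB, 8344 to 8652 CPM in LPS_IFNg, 9793 to 10370 CPM in TubB and 8395 to 8397 CPM in mock. Lyz2 was the largest part of the sum, at a mean of 4537 CPM in TubB against 4477 in mock. Single markers moved both ways. Csf1r had a mean of 200 CPM in TubB against 461 in mock, and 197 in LPS_IFNg_TubB against 478 in LPS_IFNg. Adgre1 had 81.4 against 12.4 CPM, and 94.0 against 13.3 CPM. Of 30 markers of other cell types, 3 passed the filter (S100a8, Csf3r and Xcr1) and 17 were at 0. The summed level of 6 neutrophil markers was 43.1 to 46.4 CPM in LPS_IFNg_TubB against 6.46 to 7.24 CPM in LPS_IFNg, and 37.6 to 57.1 CPM in TubB against 7.36 to 7.54 CPM in mock, with S100a9, Ly6g and Mpo at 0. That of 4 dendritic cell markers was 11.2 to 13.1 CPM in LPS_IFNg_TubB against 0.658 to 0.849 CPM in LPS_IFNg, and 9.17 to 22.2 CPM in TubB against 0.279 to 1.15 CPM in mock, with Flt3 and Siglech at 0. Most of the neutrophil sum was S100a8, at a mean of 41.6 CPM in TubB against 5.39 in mock, with Csf3r at 5.65 against 1.92. Most of the dendritic cell sum was Xcr1, at 15.2 against 0.43 CPM, with Zbtb46 at 0.52 against 0.29. Both sums move with the groups in which the restriction factors are high, and their part in the results below was not tested. In bulk RNA, more cells with a transcript and more transcript per cell cannot be told apart.

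Promoter windows of 5 of the genes are shown because these genes run from the largest fold change among the genes tested (Rsad2) to none called (Ifitm2), and include 2 pairs of chromosome neighbours. The sequences are RefSeq's, in assembly GRCm38.p6, which is the assembly of the deposited counts. Each runs 5′ to 3′ on the gene's strand from 250 bases before the start site to 30 bases from it, and capitals mark matches to any of 3 motifs. The whole Ifitm2 window lies inside the span of the gene as counted (140954837 to 140959686). Its start site is thus not the outermost one of that gene. The start site used for Cmpk2 also lies inside the counted span (26469117 to 26479837).
Rsad2 (chr12:26456423-26456702, minus strand): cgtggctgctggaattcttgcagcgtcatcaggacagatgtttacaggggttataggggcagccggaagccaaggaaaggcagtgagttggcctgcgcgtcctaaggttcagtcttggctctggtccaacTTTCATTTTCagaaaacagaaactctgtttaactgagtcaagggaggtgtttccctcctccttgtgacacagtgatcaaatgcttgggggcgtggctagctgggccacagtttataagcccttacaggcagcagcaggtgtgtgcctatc
Cmpk2 (chr12:26468965-26469244, plus strand): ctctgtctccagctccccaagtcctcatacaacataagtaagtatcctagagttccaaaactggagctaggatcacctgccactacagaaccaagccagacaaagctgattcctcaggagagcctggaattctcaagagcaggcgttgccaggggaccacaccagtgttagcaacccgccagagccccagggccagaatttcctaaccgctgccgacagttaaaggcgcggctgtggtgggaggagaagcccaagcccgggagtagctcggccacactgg
Bst2 (chr8:71537443-71537722, minus strand): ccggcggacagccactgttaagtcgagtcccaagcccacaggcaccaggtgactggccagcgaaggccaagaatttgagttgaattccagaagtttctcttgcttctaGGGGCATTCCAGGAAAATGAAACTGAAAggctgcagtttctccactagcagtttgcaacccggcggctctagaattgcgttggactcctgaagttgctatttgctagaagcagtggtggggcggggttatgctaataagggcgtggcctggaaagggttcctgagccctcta
Ifitm2 (chr7:140955932-140956211, minus strand): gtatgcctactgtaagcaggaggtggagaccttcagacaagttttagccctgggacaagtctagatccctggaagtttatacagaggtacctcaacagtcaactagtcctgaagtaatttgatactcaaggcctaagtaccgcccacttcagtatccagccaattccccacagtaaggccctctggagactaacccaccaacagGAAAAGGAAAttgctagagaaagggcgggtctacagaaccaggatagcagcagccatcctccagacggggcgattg
Ifitm3 (chr7:141010715-141010994, minus strand): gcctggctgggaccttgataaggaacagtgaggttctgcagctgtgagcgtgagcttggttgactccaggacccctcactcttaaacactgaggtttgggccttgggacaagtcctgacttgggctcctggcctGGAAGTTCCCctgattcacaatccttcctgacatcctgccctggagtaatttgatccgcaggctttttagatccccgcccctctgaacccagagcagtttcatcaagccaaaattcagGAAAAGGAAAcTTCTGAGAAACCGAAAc

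The motifs were searched on both strands of windows from 250 bases before to 50 bases after each start site, which RefSeq's table gives for 8 of the 10 genes (11 windows). Mx1 and Mx2 had no entry. Apobec3 and Isg20 have several windows each and so more places to match, whereas the shares over all genes below are per window. The ISRE core (GAAA, any 2 bases, GAAA) matched in windows of 5 genes: Rsad2, Bst2, Ifitm2, Ifitm3 and Apobec3. Over all genes, 3.44% of 32851 windows hold it. The GAS form (TTC, any 3 bases, GAA) matched in windows of 4 genes (Bst2, Samhd1, Ifitm3 and Isg20), against 8.3% of all windows, and the κB form (GGG, any 3 bases, TTCC) in windows of 3 (Bst2, Ifitm3 and Isg20), against 5.56%. The GAS and κB matches of Isg20 lie in windows of different start sites. Bst2 carries all of them in 1 cluster: its κB match starts at -142, its GAS match at -136 and its 2 ISRE matches at -130 and -124, and each overlaps the next. Ifitm3 carries its κB match at -116 and, just past the start site, ISRE matches at 2 and 19 with a GAS match at 13 that overlaps the second of them. Ifitm2 and Ifitm3 share the ISRE letters GAAAAGGAAA, which begin at -46 in Ifitm2 and at 2 in Ifitm3. The window of Cmpk2 matched none of the motifs, which says only that these letters are not in it. These matches are descriptions of letters and no evidence of binding. The map of motif matches shows their places.

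**Figure D1:**
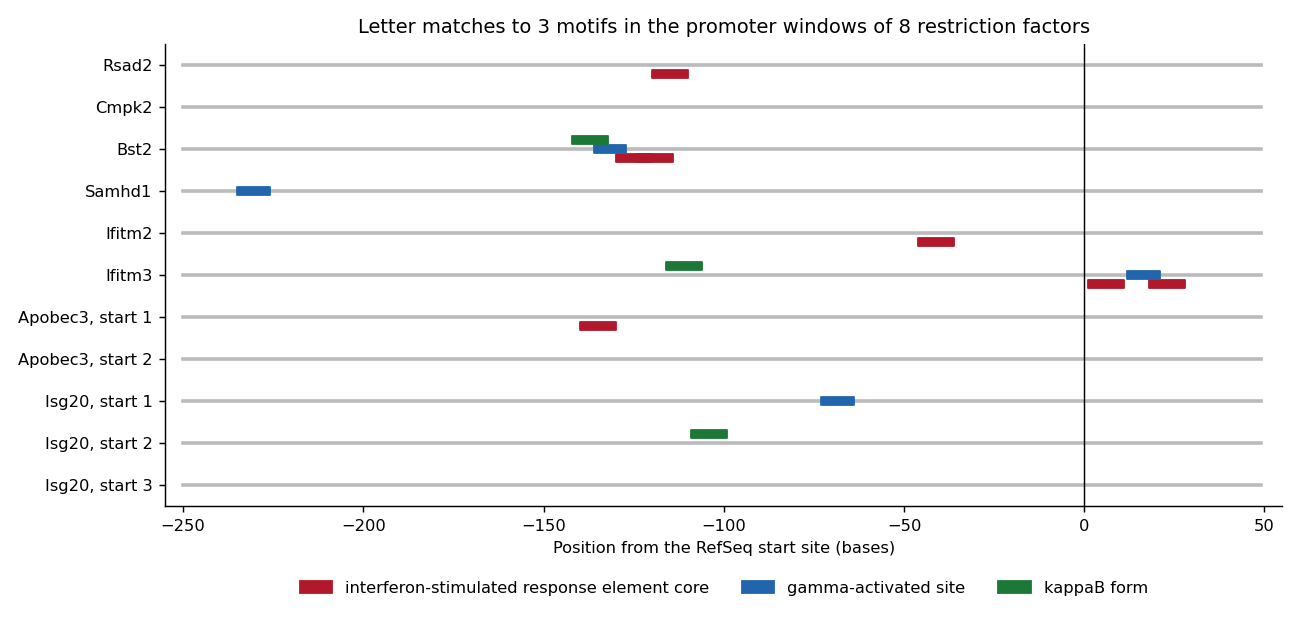
Places of letter matches to the ISRE core (red), the gamma-activated site (blue) and the κB form (green) in 11 promoter windows of 8 restriction factors, against the distance in bases from the RefSeq start site. Bst2 holds 4 overlapping matches between -142 and the start site, Ifitm3 has matches on both sides of its start site, and Cmpk2 has none.

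Most of the restriction factors were higher in the libraries labelled TubB than in those labelled mock. Of the 10 genes, 9 passed the filter on low counts and 7 of these were called higher (Rsad2, Cmpk2, Mx2, Isg20, Samhd1, Bst2 and Ifitm3), with none called lower, by edgeR's quasi-likelihood test with Benjamini-Hochberg adjustment over 11081 genes. In the same comparison 51.2% of all genes tested were called, 26.3% higher and 24.9% lower. Where both sides carry the stimulus by their labels, LPS_IFNg_TubB against LPS_IFNg, the same 7 genes were called higher, where 51.2% of all genes were called, 26.2% higher and 25.0% lower. The median log2 fold change of the 9 genes was 1.99 in TubB against mock and 1.92 in LPS_IFNg_TubB against LPS_IFNg, beside -0.01 over all genes in each. Mx2 and Isg20 reached the filter's 1.66 CPM only in libraries labelled TubB or LPS_IFNg_TubB, so they could enter the test only as genes that are higher there, and the count and median over the 9 genes are descriptions. The plot of levels by library and the plot of fold changes show these values.

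**Figure D2:**
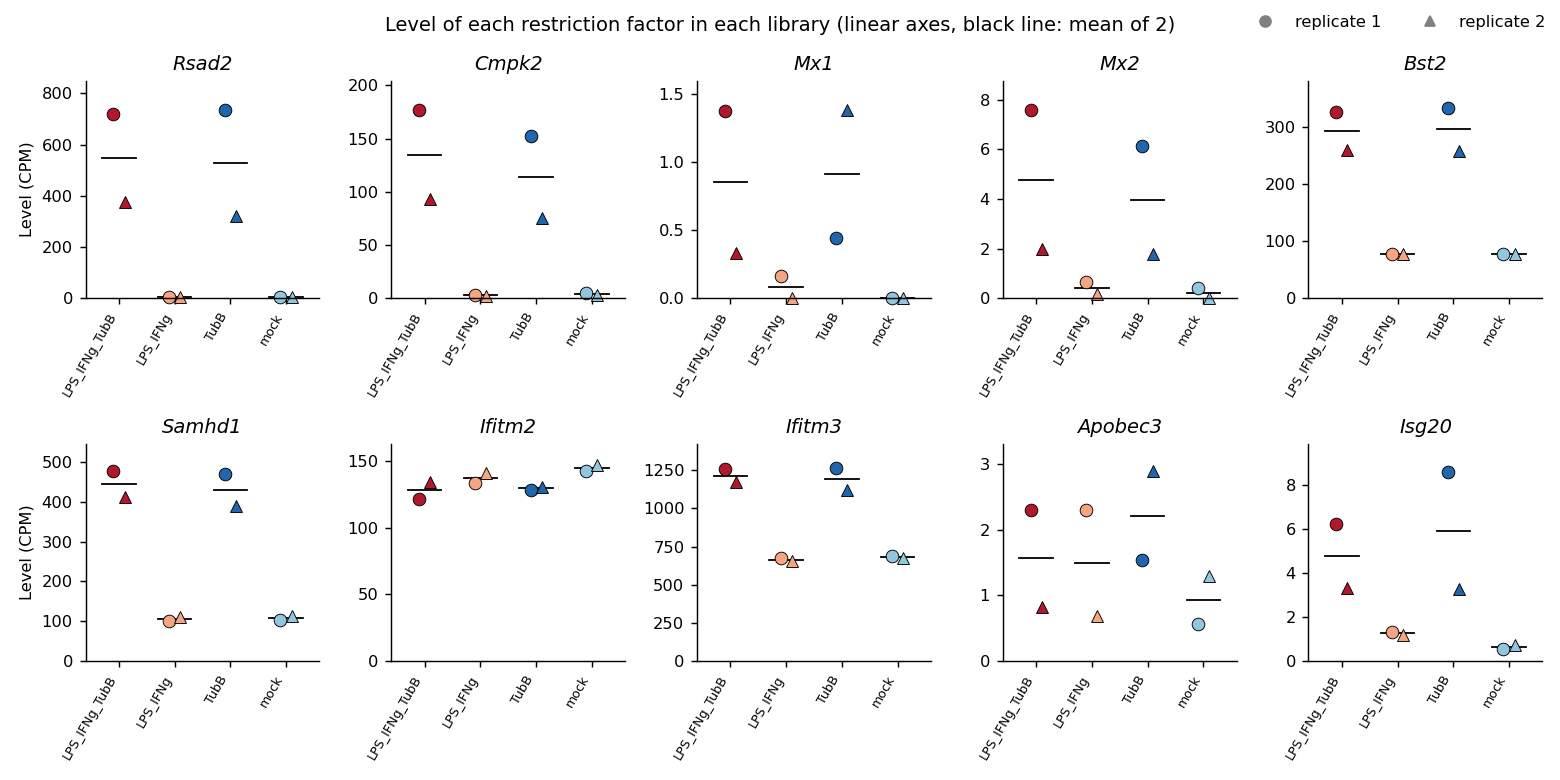
Level of each of the 10 restriction factors in CPM (linear axis from 0, 1 panel per gene) in each library, with circles for replicate 1, triangles for replicate 2 and a black line at the mean of the 2. Rsad2 and Cmpk2 sit near 0 in LPS_IFNg and mock and have replicate 1 well above replicate 2 in LPS_IFNg_TubB and TubB, whereas Ifitm2 lies between 121 and 147 CPM in all 8 libraries.

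**Figure D3:**
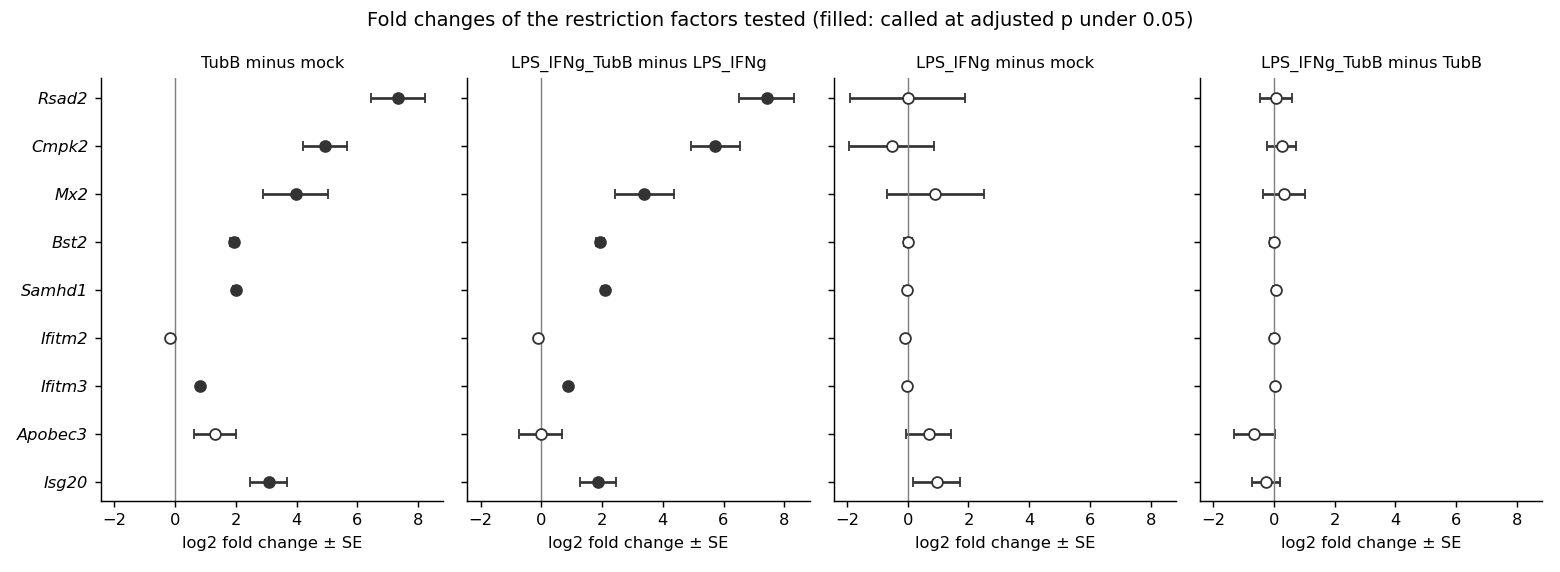
Log2 fold change (x axis) with its approximate standard error, derived from the F statistic, for the 9 restriction factors that passed the count filter, in 4 comparisons. Filled points are called at an adjusted p under 0.05 by edgeR, which holds for 7 genes in each of the first 2 comparisons and for none in the others.

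Rsad2 and Cmpk2 had the largest fold changes of the 9 genes that passed the filter. Rsad2 encodes viperin, which turns CTP into the chain-terminating nucleotide ddhCTP, and Cmpk2 encodes a mitochondrial kinase of CMP and UMP nucleotides. They are head-to-head neighbours on chromosome 12 (Rsad2 at 26442743 to 26456452 on the minus strand in 6 exon blocks, Cmpk2 at 26469117 to 26479837 on the plus strand in 5), with 12664 bases and no other annotated gene between them. Rsad2 had 735 and 320.0 CPM in TubB (replicates 1 and 2), against 3.63 and 2.74 CPM in mock. It had 721 and 376 CPM in LPS_IFNg_TubB, against 2.80 and 3.57 CPM in LPS_IFNg. Every library labelled TubB or LPS_IFNg_TubB lay far above every other, and in both of these groups replicate 1 was the higher of the pair. The log2 fold change of Rsad2 was 7.35 ± 0.89 (SE) in TubB against mock (edgeR adjusted p = 0.00258) and 7.42 ± 0.91 in LPS_IFNg_TubB against LPS_IFNg (adjusted p = 0.00277). Without TubB replicate 1, the first was 6.64.

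Cmpk2 had 152 and 75.6 CPM in TubB, against 4.47 and 2.74 CPM in mock. It had 177 and 92.9 CPM in LPS_IFNg_TubB, against 2.80 and 2.21 CPM in LPS_IFNg. The groups did not overlap, and replicate 1 was again the higher of each pair. Its log2 fold change was 4.94 ± 0.74 in TubB against mock (edgeR adjusted p = 0.00543) and 5.72 ± 0.81 in LPS_IFNg_TubB against LPS_IFNg (adjusted p = 0.00442). Under limma-voom both genes missed the threshold in both comparisons (adjusted p = 0.0662 and 0.0785 for Rsad2, 0.0546 and 0.0686 for Cmpk2). Per kilobase of exon, the ratio of Rsad2 to Cmpk2 within a library was 3.69 to 3.71 in LPS_IFNg_TubB against 0.91 to 1.47 in LPS_IFNg, and 3.85 to 4.39 in TubB against 0.739 to 0.91 in mock. Rsad2 thus exceeded its neighbour by at least 3.69 times in each library labelled TubB or LPS_IFNg_TubB and was about as abundant as Cmpk2 in the others, where the ratios rest on 13 to 32 counts per gene and library.

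Mx1 and Mx2 encode dynamin-like GTPases that block incoming viral ribonucleoproteins, Mx1 in the nucleus and Mx2 in the cytoplasm of mouse cells. Many inbred laboratory strains carry a defective Mx1. Both were scarce. Mx2 (chromosome 16, 97536081 to 97560901, plus strand, 14 exon blocks) had 28 and 14 counts in TubB, against 3 and 0 in mock, which is a ratio of 15.8 after scaling for depth (exact 95% interval 5.04 to 79.6, counting error only). It had 33 and 12 counts in LPS_IFNg_TubB, against 4 and 1 in LPS_IFNg, a ratio of 10.3 (4.12 to 33.4). All 4 libraries labelled TubB or LPS_IFNg_TubB were above the other 4. The edgeR log2 fold changes were 3.97 ± 1.07 in TubB against mock (adjusted p = 0.00557) and 3.38 ± 0.97 in LPS_IFNg_TubB against LPS_IFNg (adjusted p = 0.00814).

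At these counts single libraries decide the size for Mx2. In TubB against mock its log2 fold change was 3.07 without mock replicate 2, 2.94 without TubB replicate 1 and 4.73 without TubB replicate 2. Without mock replicate 1 the fit gave 7.46, but mock then had 0 counts, so that size has no measured reference. The ratio to a floor of 3 counts given to mock was 7.76 there. In LPS_IFNg_TubB against LPS_IFNg the log2 fold change of Mx2 was 4.59 without LPS_IFNg replicate 1 and 4.12 without LPS_IFNg_TubB replicate 2. The call was lost without LPS_IFNg replicate 2 (2.76, edgeR adjusted p = 0.0795) and without LPS_IFNg_TubB replicate 1 (2.20, adjusted p = 0.104). It was also lost with the deposited rlog values in both comparisons (limma, adjusted p = 0.0595 and 0.0539) and under limma-voom in the second (0.0644).

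Mx1 (chromosome 16, 97447035 to 97462906, minus strand, 9 exon blocks) lies 73174 bases from Mx2 with Fam3b between them, and did not pass the count filter. It had 2 and 11 counts in TubB, against 0 and 0 in mock. After scaling for depth, that was 4.88 times a floor of 3 counts given to mock over its 2 libraries. Without 1 library in turn this ratio to the floor was 2.06 (TubB replicate 2 left out) to 6.50 (TubB replicate 1 left out), and 2.40 and 2.48 without mock replicate 1 and 2. It allows for no counting error in TubB, so it is no confidence bound. It had 6 and 2 counts in LPS_IFNg_TubB, against 1 and 0 in LPS_IFNg, a ratio of 9.19 with an exact 95% interval of 1.23 to 408. This interval included 1 without LPS_IFNg_TubB replicate 1 (ratio 3.95, 0.206 to 233) and without LPS_IFNg replicate 2 (4.67, 0.626 to 207). The ratio was 16.5 without LPS_IFNg_TubB replicate 2, and the ratio to the floor was 1.51 without LPS_IFNg replicate 1. Unlike Mx2, Mx1 was higher in replicate 2 of TubB, a difference of single counts. With no count filter Mx1 was called in TubB against mock (edgeR adjusted p = 0.0175) and not in LPS_IFNg_TubB against LPS_IFNg (adjusted p = 0.18).

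Bst2 encodes tetherin, a membrane protein that holds budding virions on the surface of the infected cell. It lies on chromosome 8 at 71534255 to 71537472 (minus strand, 5 exon blocks). Bst2 had 333 and 259 CPM in TubB, against 76.8 and 77.3 CPM in mock. It had 326 and 259 CPM in LPS_IFNg_TubB, against 76.7 and 77.6 CPM in LPS_IFNg. The 4 low libraries were within 1 CPM of each other and all 4 high ones were above 250 CPM. The log2 fold change was 1.94 ± 0.13 in TubB against mock (edgeR adjusted p = 3e-08) and 1.92 ± 0.13 in LPS_IFNg_TubB against LPS_IFNg (adjusted p = 3.98e-08), and no left-out library moved either past 1.5-fold.

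Samhd1 encodes a phosphohydrolase that breaks down deoxynucleotides and so starves reverse transcription of its building blocks, mainly in cells that do not divide. It lies on chromosome 2 at 157097534 to 157135096 (minus strand, 18 exon blocks). Samhd1 had 472 and 391 CPM in TubB, against 103 and 113 CPM in mock. It had 479 and 413 CPM in LPS_IFNg_TubB, against 101 and 109.7 CPM in LPS_IFNg. It had the smallest adjusted p of the set in both comparisons, with a log2 fold change of 1.99 ± 0.094 in TubB against mock (edgeR adjusted p = 1.16e-14) and 2.08 ± 0.095 in LPS_IFNg_TubB against LPS_IFNg (adjusted p = 7.23e-15).

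Deoxynucleotides are the substrates of Samhd1. Of 21 genes of deoxynucleotide supply and turnover, all tested, 1 was called higher and 9 lower in TubB against mock, and 0 higher and 10 lower in LPS_IFNg_TubB against LPS_IFNg. Over all genes 26.3% were called higher and 24.9% lower in the first, and 26.2% and 25.0% in the second. The list's median log2 fold change was -0.37 in the first and -0.44 in the second, beside -0.01 over all genes. Dctd, the dCMP deaminase, had 9.88 and 15.3 CPM in TubB, against 49.3 and 41.8 CPM in mock, and its log2 fold change was -1.80 ± 0.18 there and -2.03 ± 0.19 in LPS_IFNg_TubB against LPS_IFNg (edgeR adjusted p = 1.24e-09 and 5.43e-10). Tk1, the thymidine kinase of dividing cells, changed by -1.68 ± 0.20 and -1.58 ± 0.21 (adjusted p = 5.11e-06 and 1.64e-05), and the first was -2.29 without TubB replicate 2. Rrm1 and Rrm2, the ribonucleotide reductase subunits, which were picked after their values were seen, changed by -0.68 ± 0.097 and -0.81 ± 0.14 in TubB against mock (adjusted p = 7.02e-06 and 0.00128). The 1 gene called higher was Cmpk1, the cytosolic counterpart of Cmpk2, at 0.20 ± 0.078 in TubB against mock (adjusted p = 0.0316), a call lost without any 1 of the 4 libraries compared (adjusted p = 0.0651 to 0.133), with no count filter (0.0772) and under DESeq2 (0.0671). In LPS_IFNg_TubB against LPS_IFNg it was at 0.04 ± 0.080 and not called.

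Ifitm2 and Ifitm3 encode small membrane proteins that keep enveloped viruses from fusing with endosomes, and of the pair only Ifitm3 was called. They lie 49903 bases apart on the minus strand of chromosome 7 (Ifitm2 at 140954837 to 140959686, Ifitm3 at 141009590 to 141010744), with Ifitm1 and Gm33504 between them. Ifitm3 had 1265 and 1123 CPM in TubB, against 685 and 674 CPM in mock. It had 1258 and 1175 CPM in LPS_IFNg_TubB, against 677 and 653 CPM in LPS_IFNg. The groups were well apart, with log2 fold changes of 0.81 ± 0.071 in TubB against mock (edgeR adjusted p = 7.94e-11) and 0.87 ± 0.071 in LPS_IFNg_TubB against LPS_IFNg (adjusted p = 1.99e-11).

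Ifitm2 had 129 and 131 CPM in TubB, against 143 and 147 CPM in mock. It had 121 and 135 CPM in LPS_IFNg_TubB, against 134 and 141 CPM in LPS_IFNg. The libraries of TubB lay just below those of mock, and those of LPS_IFNg_TubB and LPS_IFNg overlapped. Its log2 fold changes were -0.16 ± 0.084 (edgeR adjusted p = 0.117) and -0.10 ± 0.086 (adjusted p = 0.359), neither called. Within a library the ratio of Ifitm3 to Ifitm2 per kilobase of exon was 18.6 to 22.1 in LPS_IFNg_TubB against 9.90 to 10.8 in LPS_IFNg, and 18.3 to 21.0 in TubB against 9.80 to 10.2 in mock. These genes are close paralogs, and reads that fit both could be lost or split by the counting, so the levels of either are uncertain to that extent. Of the other Ifitm genes, Ifitm6 was called higher in TubB against mock (0.59 ± 0.13, adjusted p = 0.00028) and in LPS_IFNg_TubB against LPS_IFNg (0.76 ± 0.13, adjusted p = 1.45e-05). Ifitm1, between the pair on the chromosome and named after its values were seen, had 3 counts in all, in TubB replicate 2.

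Apobec3 encodes a cytidine deaminase that is packaged into retroviral particles and hinders reverse transcription. Its row on chromosome 15 (79892058 to 79918218, plus strand, 13 exon blocks) held 76 counts in all, while a numbered copy of the gene on another scaffold of the assembly, Apobec3_1, held 1299. The chromosome 15 row thus took 5.53% of the counts of both (2.21% to 9.79% per library). By that row Apobec3 had 1.54 and 2.89 CPM in TubB, against 0.56 and 1.30 CPM in mock, and 2.30 and 0.83 CPM in LPS_IFNg_TubB, against 2.30 and 0.68 CPM in LPS_IFNg. It was not called, with log2 fold changes of 1.32 ± 0.69 (edgeR adjusted p = 0.113) and -0.03 ± 0.72 (adjusted p = 0.977). Without 1 library in turn the first ran from 0.73 (TubB replicate 2 left out) to 2.01 (mock replicate 2 left out), not called in any, and the second turned positive under DESeq2, limma-voom and the rlog values (0.03, 0.03 and 0.01). Its exons overlap those of the antisense genes Cbx7 (2247 bases) and D730005E14Rik (512 bases), and the library kit did not keep strand, so their reads cannot be told apart.

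The copy gave a more precise value. Apobec3_1 had 30.5 and 33.3 CPM in TubB, against 18.6 and 18.8 CPM in mock. It had 37.9 and 36.5 CPM in LPS_IFNg_TubB, against 21.2 and 19.9 CPM in LPS_IFNg. Neither pair of groups overlapped, and it was called higher in both comparisons, at 0.78 ± 0.16 (edgeR adjusted p = 0.000111) and 0.85 ± 0.16 (adjusted p = 4.11e-05). Both rows summed gave 32.1 to 36.2 CPM in TubB, against 19.1 to 20.1 CPM in mock, and 37.3 to 40.2 CPM in LPS_IFNg_TubB, against 20.6 to 23.5 CPM in LPS_IFNg. Reads that fit both rows equally are not counted under the counting program's defaults, so neither row is the full level of the gene.

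Isg20 encodes an interferon-induced exonuclease that degrades single-stranded RNA. It lies on chromosome 7 at 78913396 to 78920396 (plus strand, 5 exon blocks). Isg20 had 8.56 and 3.27 CPM in TubB, against 0.56 and 0.72 CPM in mock. It had 6.20 and 3.30 CPM in LPS_IFNg_TubB, against 1.32 and 1.19 CPM in LPS_IFNg. The groups did not overlap in either pair, with replicate 1 the higher in TubB and LPS_IFNg_TubB, as for Rsad2. The log2 fold change was 3.09 ± 0.61 in TubB against mock (edgeR adjusted p = 9.32e-05), 2.32 without TubB replicate 1 and 3.71 without TubB replicate 2. It was 1.87 ± 0.58 in LPS_IFNg_TubB against LPS_IFNg (adjusted p = 0.008), and that call was lost without LPS_IFNg replicate 2 (1.80, adjusted p = 0.0515) or LPS_IFNg_TubB replicate 1 (1.39, adjusted p = 0.114).

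The 2 replicates of a group differed far more for some restriction factors than for others. In TubB, replicate 1 exceeded replicate 2 by 2.30 times for Rsad2 (exact 95% counting interval 2.18 to 2.42), 2.02 times for Cmpk2 (1.80 to 2.25), 3.50 times for Mx2 (1.78 to 7.18) and 2.62 times for Isg20 (1.56 to 4.49). In LPS_IFNg_TubB the ratios were 1.92 for Rsad2 (1.81 to 2.02), 1.90 for Cmpk2 (1.71 to 2.13), 3.82 for Mx2 (1.92 to 8.12) and 1.88 for Isg20 (1.01 to 3.53). Among 8804 genes of mean log2 CPM of at least 3, the middle 90% of these ratios lay between 0.735 and 1.28 in TubB and between 0.741 and 1.27 in LPS_IFNg_TubB. Mx2 and Isg20 are below that level, so this range is not that of genes as scarce as they are. The interval of Isg20 in LPS_IFNg_TubB also reaches into it. Only 3 of the 8804 genes, Rsad2 included, had a ratio as high as that of Rsad2 in TubB, and 10 in LPS_IFNg_TubB. Bst2 was near the upper edge of that range, at 1.29 in TubB and 1.26 in LPS_IFNg_TubB, and Samhd1 (1.21 and 1.16), Ifitm3 (1.13 and 1.07) and Ifitm2 (0.98 and 0.90) were inside it. In mock and LPS_IFNg the intervals of Rsad2 (0.705 to 2.53 and 0.389 to 1.56) and Cmpk2 (0.896 to 3.04 and 0.58 to 2.84) included 1 at their 30 to 51 counts per group. Replicate 1 was the higher one for these 4 genes in both TubB and LPS_IFNg_TubB, and the labels give no batch to set beside it. The plot of replicate ratios shows the contrast.

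**Figure D4:**
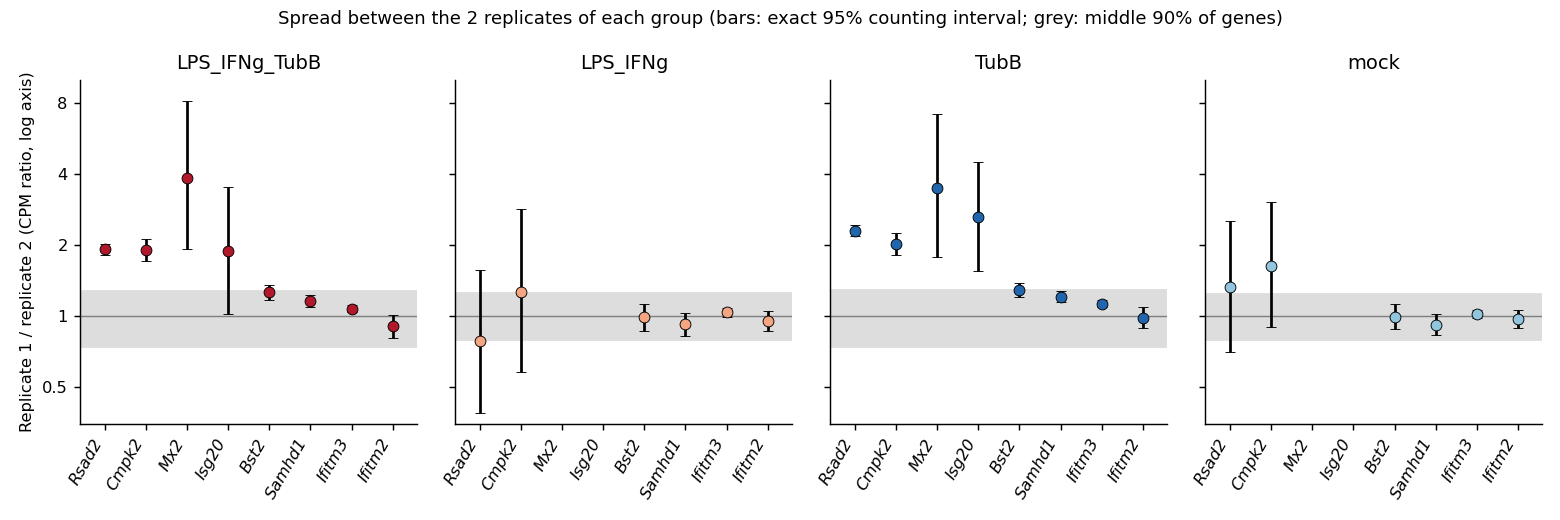
Ratio of the level in replicate 1 to that in replicate 2 (log axis) for 8 restriction factors in each group, with the exact 95% counting interval as bars and the middle 90% of 8804 genes as the grey band. The points of Rsad2, Cmpk2, Mx2 and Isg20 lie above the band in LPS_IFNg_TubB and TubB, and those of Samhd1, Ifitm3 and Ifitm2 lie within it. The band is of genes of mean log2 CPM of at least 3, and Mx2 and Isg20 are below that level. Genes with under 20 counts in a group are not drawn there.

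Per kilobase of exon (RPKM, from the deposited gene lengths), Ifitm3 was the most abundant of the 10 genes in every group, at 1878 RPKM in LPS_IFNg_TubB, 1026 in LPS_IFNg, 1842 in TubB and 1049 in mock, ranks 18, 29, 19 and 27 of 18955 genes. Bst2 came next in LPS_IFNg_TubB (362 RPKM) and TubB (366), and it was behind Ifitm2 in LPS_IFNg (95.5 against 99.2 RPKM) and mock (95.3 against 105 RPKM), with no overlap between the libraries of the genes in either group, though in LPS_IFNg the nearest libraries were at 96.1 and 96.7 RPKM. Rsad2 moved most in rank, to 447 in LPS_IFNg_TubB (145 RPKM) against 10294 in LPS_IFNg (0.841 RPKM), and to 465 in TubB (139 RPKM) against 10320 in mock (0.841 RPKM). In LPS_IFNg_TubB and TubB the libraries of Rsad2, Samhd1 and Ifitm2 overlapped in level, at group means from 91.6 to 145 RPKM, and Cmpk2 was below them at 39.1 and 33.1 RPKM. Isg20 and Mx2 also overlapped there, as did Mx1 and Apobec3, all at 2.96 RPKM or less on average. In LPS_IFNg and mock, Samhd1 (22.4 and 22.9 RPKM) stood apart from Rsad2, Cmpk2, Isg20, Mx2, Mx1 and Apobec3, whose means were 1.05 RPKM or less. The plot of levels per length shows this order.

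**Figure D5:**
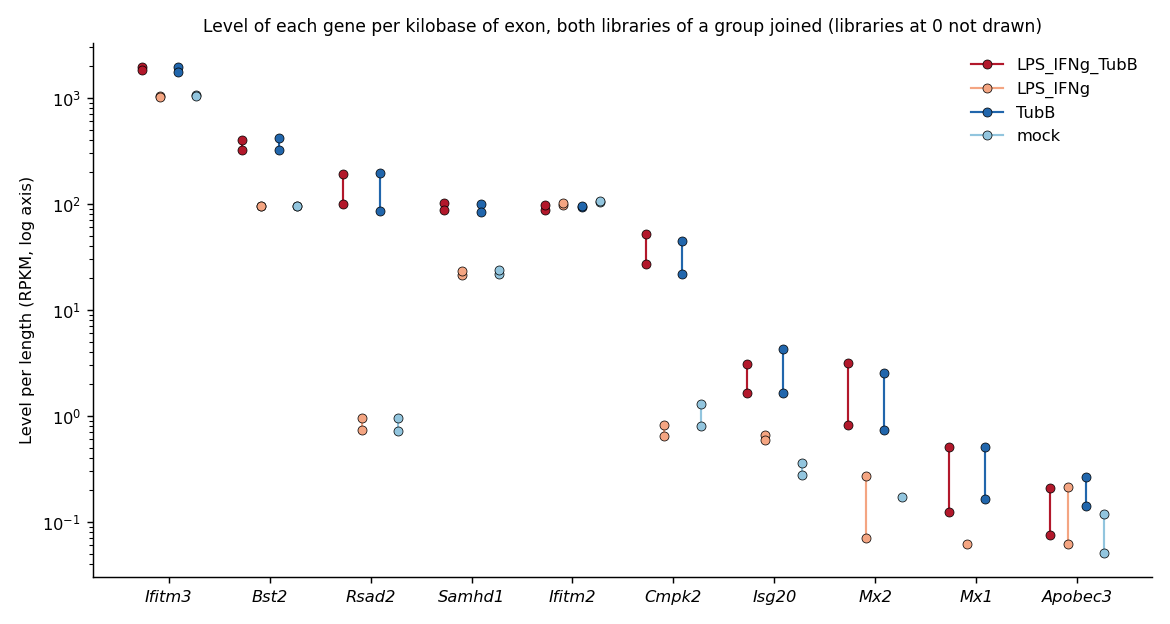
Level per kilobase of exon (RPKM, log axis) of the 10 restriction factors in both libraries of each group, joined by a line. Ifitm3 is highest in every group, and Rsad2 averages 139 RPKM in TubB and 0.841 RPKM in mock.

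None of the 10 genes was called between the libraries labelled LPS_IFNg and those labelled mock, or between LPS_IFNg_TubB and TubB, where 0.0% of all genes were called. At an unadjusted p under 0.05, edgeR gave 0 of the 9 genes tested and 247 and 269 of 11081 genes in these comparisons, and DESeq2 gave 69 and 87 genes with 0 called. For LPS_IFNg against mock the log2 fold change was 0.00 ± 0.14 for Bst2, -0.04 ± 0.098 for Samhd1, -0.03 ± 0.071 for Ifitm3 and -0.08 ± 0.083 for Ifitm2, each with a narrow error. For Rsad2 (-0.01 ± 1.89), Cmpk2 (-0.52 ± 1.40), Mx2 (0.91 ± 1.60) and Isg20 (0.95 ± 0.77) the standard errors were wide, and a difference of several fold lies within 2 standard errors of each value. These errors are derived from the F statistic and are only rough at such low counts. Isg20 was still higher in both LPS_IFNg libraries than in both mock libraries. For LPS_IFNg_TubB against TubB the 9 values ran from -0.66 (Apobec3, ± 0.68) to 0.32 (Mx2, ± 0.68), with Rsad2 at 0.06 ± 0.52 and Cmpk2 at 0.26 ± 0.48. The difference between LPS_IFNg_TubB against LPS_IFNg and TubB against mock was called for none of the 9 genes, with 0.0% of all genes called (277 of all genes under an unadjusted p of 0.05 in edgeR, 80 in DESeq2). It ran from -1.34 ± 1.01 for Apobec3 and -1.22 ± 0.90 for Isg20 to 0.78 ± 1.48 for Cmpk2. These misses do not show that the groups act alike.

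Most of the other antiviral effectors and sensors tested were called higher. Of 41 such genes, 36 were tested and 33 were called higher and 2 lower in TubB against mock, and again 33 and 2 in LPS_IFNg_TubB against LPS_IFNg, where 26.3% and 26.2% of all genes were called higher and 24.9% and 25.0% lower. Their median log2 fold change was 3.15 in the first and 2.93 in the second, beside -0.01 over all genes. Oasl2, a relative of the 2′-5′ oligoadenylate synthetases, had 109 and 52.5 CPM in TubB, against 0.14 and 0.43 CPM in mock, a ratio of 258 with an exact 95% interval of 100.2 to 947 for 4 counts in mock. Leaving out mock replicate 2 raised its edgeR log2 fold change to 8.94, beside 8.02 ± 1.03 with all libraries (adjusted p = 0.00305), and limma-voom did not call it (adjusted p = 0.112). Ifi44l, a modulator of the interferon response, had 62 and 34 counts in TubB, against 0 and 0 in mock. That was 36.1 times the floor given to mock (17.7 without mock replicate 1, 18.3 without mock replicate 2, 20.1 without TubB replicate 1, 64.0 without TubB replicate 2). Oasl2 and Ifi44l reached the filter's 1.66 CPM only in libraries labelled TubB or LPS_IFNg_TubB. So did others of the list, among them Isg15 and Zbp1, picked after their values were seen. Such genes could enter the test only as genes that are higher there, so the list's count and median are descriptions. The 2 genes called lower were Shfl, an inhibitor of ribosomal frameshifting, at -0.35 ± 0.13 and -0.37 ± 0.14 (adjusted p = 0.0263 and 0.0257), and Serinc3, a virion infectivity inhibitor, at -0.24 ± 0.073 and -0.24 ± 0.074 (0.00779 and 0.00704). DESeq2 did not call Shfl (adjusted p = 0.1 and 0.0824). In TubB against mock Shfl was lost without mock replicate 1, TubB replicate 1 or TubB replicate 2 (edgeR adjusted p = 0.296, 0.0557 and 0.112) and Serinc3 without mock replicate 2 (0.0817). In LPS_IFNg_TubB against LPS_IFNg, Shfl was lost without LPS_IFNg replicate 1 or 2 or LPS_IFNg_TubB replicate 1 (0.108, 0.0686 and 0.207) and Serinc3 without LPS_IFNg_TubB replicate 1 (0.139).

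Most of the interferon signalling genes tested were called higher as well. Their list also holds feedback inhibitors, such as Socs1. Of 28 genes from interferon ligands to transcription factors, 25 were tested, 19 were called higher and 1 lower in TubB against mock, and 20 and 1 in LPS_IFNg_TubB against LPS_IFNg. The shares over all genes were 26.3% higher and 24.9% lower in the first and 26.2% and 25.0% in the second. The list's median log2 fold change was 1.39 and 1.36, beside -0.01 over all genes in each. The ligand genes Ifnb1, Ifna4 and Ifng, named after their values were seen, had 0 counts in all 8 libraries. Tnf, a listed marker of macrophage stimulation also named after its values were seen, had 0 counts in all 8 too. Whether a 0 here means that the transcript is absent was not tested. Irf1, a transcription factor that binds the ISRE, had 729 and 676 CPM in TubB, against 7.40 and 5.91 CPM in mock, with a log2 fold change of 6.71 ± 0.11 there and 7.01 ± 0.12 in LPS_IFNg_TubB against LPS_IFNg (edgeR adjusted p = 6.45e-28 and 7.79e-28). Socs1, the feedback inhibitor of Janus kinases, had 261 and 344 counts in TubB, against 6 and 0 in mock, a ratio of 114 (exact 95% interval 51.9 to 311). Its edgeR log2 fold change of 6.80 ± 0.35 was 5.85 without mock replicate 2. Without mock replicate 1 the fit gave 11.2, but mock then had 0 counts, so that size has no measured reference. The ratio to the floor given to mock was 112 there. Socs1 too reached the filter's 1.66 CPM only in libraries labelled TubB or LPS_IFNg_TubB, so this list's count and median are descriptions as well. Irf3, the factor that lipopolysaccharide activates downstream of TLR4, changed by -0.41 ± 0.14 in TubB against mock (adjusted p = 0.015), a call lost without any 1 of the 4 libraries (adjusted p = 0.0552 to 0.0719) and under DESeq2 (0.0639), and by -0.60 ± 0.14 in LPS_IFNg_TubB against LPS_IFNg (adjusted p = 0.000841).

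Of 17 listed family relatives of the restriction factors, 8 were tested, and 3 were called higher and 2 lower in TubB against mock, and 2 and 1 in LPS_IFNg_TubB against LPS_IFNg. These small counts stand beside 26.3% of all genes called higher and 24.9% lower in the first, and 26.2% and 25.0% in the second. The list's median log2 fold change was 0.06 and 0.01, beside -0.01 over all genes in each. Dnm2, a dynamin of endocytosis and a distant relative of the Mx proteins, changed by 0.51 ± 0.082 and 0.62 ± 0.083 (edgeR adjusted p = 5.26e-06 and 3.01e-07). Apobec1, an mRNA editing deaminase, had 55.1 and 62.6 CPM in TubB, against 73.8 and 77.2 CPM in mock, and changed by -0.35 ± 0.11 and -0.49 ± 0.11 (adjusted p = 0.00757 and 0.000488). The first of these was lost without mock replicate 2 (0.0605) or TubB replicate 1 (0.0748). Isg20l2 changed by -0.32 ± 0.10 in TubB against mock (adjusted p = 0.0104, lost without mock replicate 1 at 0.0743) and was at -0.12 ± 0.10 in LPS_IFNg_TubB against LPS_IFNg, not called. None of the genes on these 4 lists was called between LPS_IFNg and mock or between LPS_IFNg_TubB and TubB. At an unadjusted p under 0.05 edgeR gave 0 of their genes there, except 1 and 2 of the 21 deoxynucleotide genes.

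For each restriction factor tested, the 2 genes with the most similar pattern over the 8 libraries were found by the root mean square difference of log2 CPM, centred on each gene's mean, among 8609 genes of mean log2 CPM of at least 3. Nearest to Cmpk2 were Isg15 (0.199) and Ifih1 (0.237), and nearest to Rsad2 were Edn1 (0.343) and Zbp1 (0.380). Isg15, which encodes a ubiquitin-like modifier, had 82.1 and 35.1 CPM in TubB, against 1.26 and 0.87 CPM in mock, so it shared with Cmpk2 both the difference between groups and the higher replicate 1. Edn1, endothelin, had 254 and 189 CPM in TubB, against 1.12 and 1.44 CPM in mock. Nearest to Mx2 were Oas2 (0.463) and Slfn5 (0.470), to Isg20 Il4ra (0.314) and Grap (0.325), to Bst2 Junb (0.0397) and Cpeb4 (0.0563), and to Samhd1 Rgs1 (0.0401) and Nlrp3 (0.0418). Ifitm3 was nearest to Cast (0.0271) and Hk2 (0.0275), Ifitm2 to Tmem161a (0.0196) and Xrn2 (0.0268), and Apobec3 to Wdr45 (0.315) and Brwd1 (0.372). The libraries share their depth and their groups, so these distances only describe the 8 libraries.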

How the data were processed

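The authors deposited raw read counts per gene. The submitters' processing notes name STAR 2.7.0 and featureCounts, and the file headers give featureCounts 2.0.1 over exons of GRCm38.p6 without a strand option. Per the labels the kit was not stranded. The deposited regularised log2 values (rlog) served as an alternative, and the deposited gene lengths for RPKM.

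The count test was edgeR 4.0.16 (quasi-likelihood, TMM, R 4.3.3), fitted to all 8 libraries with group as the only term. filterByExpr (minimum count 10, total 15) left 11081 genes, and Benjamini-Hochberg adjusted p-values over all of them were called under 0.05. CPM used the TMM factors. Each standard error (SE) was derived as the absolute log2 fold change divided by the square root of the test's F statistic. It is therefore approximate, most of all for genes with few counts or changes near 0. The code was tested on simulated data. Alternatives were other scaling, filters and tools (DESeq2 1.42.0, limma 3.58.1), a replicate term and leaving out each library. In the count ratios, groups at 0 counts received a floor of 3 over their libraries used. The edgeR fits used no such floor. The floor covers counting error in the group at 0 only, so a ratio against it is no confidence bound. Intervals cover counting error only, since reads without molecular identifiers are not independent. At 4767894 to 8413834 counts per library, levels under about 1 CPM are single counts. Counts of every pair of libraries differed by more than sampling noise.

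The members and gene lists were chosen with earlier results of these data known. Of each list the text names the 2 called genes with the largest change in each direction in TubB minus mock, and it marks others as picked after their values were seen.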

Additional observations from a re-analysis of the deposited data

How the results depend on the processing

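All 14 called log2 fold changes of the restriction factors (7 genes in 2 comparisons) had the same direction in all 224 fits with an alternative, and 213 of these also passed the threshold. The other 11 are the losses of Rsad2, Cmpk2, Mx2 and Isg20 given beside their values. The 224 fits are not separate checks. Some leave out a library of a group that is not compared, which changes the value little. Members called in LPS_IFNg_TubB against LPS_IFNg numbered 4 under limma-voom, against 7, and 5 to 7 when 1 library was left out; in TubB against mock they numbered 5 under limma-voom, 6 with rlog values and 7 without any 1 library. The cause was not tested. The rlog values, which shrink low counts by construction, gave smaller fold changes: 4.01 and 4.05 for Rsad2, 2.75 and 3.04 for Cmpk2, 0.71 and 0.73 for Mx2, 0.81 and 0.54 for Isg20, 1.26 and 1.24 for Bst2 and 1.31 and 1.36 for Samhd1, in TubB against mock and LPS_IFNg_TubB against LPS_IFNg.

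The replicate numbers are not said to pair libraries. With a replicate block, 7 members and 5729 genes were called in TubB against mock, and 7 and 5753 in LPS_IFNg_TubB against LPS_IFNg. Deviations of same-numbered libraries correlated at 0.263 between LPS_IFNg_TubB and TubB and 0.145 between LPS_IFNg and mock, and at -0.0927 to 0.0018 between the other pairs of groups (across 8804 genes, which are not independent). Same-numbered libraries differed less (mean chi-square per gene 1.95 and 2.34 between LPS_IFNg_TubB and TubB, 1.93 and 1.98 between LPS_IFNg and mock) than the replicates of 1 group (2.60 to 4.87). Whether the number links libraries between these groups was not tested. The main fit did not use it to pair libraries.

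Log2 fold changes of restriction factors that were not called changed sign in 52 fits. Apobec3 in LPS_IFNg_TubB against LPS_IFNg was at 0.034 under DESeq2, 0.031 under limma-voom and 0.011 with rlog values. Rsad2 in LPS_IFNg against mock was at 0.0017, 0.0024 and 0.030 under these. Bst2 there was at -0.015 with no filter and -0.0028 with only those groups, and the difference of Mx2 between LPS_IFNg_TubB against LPS_IFNg and TubB against mock was 0.017 with rlog values. The other sign changes, and 1 of Cmpk1, came with 1 library left out. For LPS_IFNg_TubB against LPS_IFNg they ran from -0.84 to 1.09 for Apobec3 and -0.00865 to 0.10 for Cmpk1. For LPS_IFNg against mock they ran from -0.19 to 0.21 for Rsad2, -0.29 to 4.39 for Mx2, -0.00818 to 0.0126 for Bst2, -0.10 to 0.0296 for Samhd1 and -0.43 to 1.39 for Apobec3. For LPS_IFNg_TubB against TubB they ran from -0.48 to 0.77 for Rsad2, -0.27 to 0.82 for Cmpk2, -0.89 to 1.37 for Mx2, -0.20 to 0.17 for Bst2, -0.0888 to 0.19 for Samhd1, -0.10 to 0.0492 for Ifitm2, -0.0617 to 0.12 for Ifitm3 and -0.89 to 0.50 for Isg20. For the difference between LPS_IFNg_TubB against LPS_IFNg and TubB against mock they ran from -0.47 to 0.78 for Rsad2, -4.07 to 0.61 for Mx2, -0.20 to 0.17 for Bst2, -0.0486 to 0.23 for Samhd1, -0.0202 to 0.13 for Ifitm2 and -0.0255 to 0.15 for Ifitm3. The 4.39 and -4.07 of Mx2 come without mock replicate 1, where mock had 0 counts of it. Their size thus has no measured reference.

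List counts, chosen for this check after seeing the data, differed by over 1.5 times in 23 of 632 cases, among lists' small counts of genes called lower or of 1 gene called higher. With depth scaled by library totals alone, the replicate ratio of Ifitm3 in TubB was 1.08, and the other ratios stayed inside their counting intervals. Depth limits Mx1, Mx2, Isg20 and Apobec3, which rest on 0 to 39 counts per library.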
